A study of Mus musculus with 27 samples.

Results

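The comparison set NIH/3T3 fibroblasts at 42 h after a forskolin pulse against cells of the same experiments at 18 h, so the samples lay 1 day apart. It used 6 of the 27 arrays of the series, namely the 3 whose titles give 42 hr and the 3 whose titles give 18 hr, and the arrays were paired by the experiment number in the titles. NIH/3T3 is an established mouse embryonic fibroblast line. Cells of both groups had been brought down in serum over the days before the experiment, were exposed for 2 h to 15 µM forskolin in serum-free medium, rinsed, and kept in serum-free medium until separate flasks were harvested. Forskolin activates adenylyl cyclase and raises cyclic AMP. The 42 h cells had therefore spent 1 more day without serum than the 18 h cells, and time since the pulse and time without serum cannot be told apart. Cells without the pulse were not analysed here. The series sampled 9 times at 6 h steps, the last at 48 h, in each of 3 experiments, which are biological replicates per the labels. Its purpose was to find transcripts with a circadian course.

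In a circadian clock, the CLOCK and BMAL1 proteins switch on the Per and Cry genes through E-box sequences, and the PER and CRY proteins then shut their own genes down, which gives a cycle of about a day. REV-ERB and ROR proteins act on the Bmal1 gene as a further loop. A transcript that follows only such a cycle comes back to the same level after 1 full turn, so times 1 day apart show what differs at one nominal phase. Fibroblasts without serum leave the cell cycle, and RNAs of mitotic genes decline as they do so. By their means both times lay after that decline: the median level of 32 genes of G2 and mitosis, relative to 0 h, was -1.20 at 42 h and -1.43 at 18 h on the log2 scale, against -0.33 at 12 h. That holds for the means. Levels of single arrays were taken from the 0 h mean of all 3 experiments, not from the 0 h array of the same experiment. On that baseline experiment 2 stood at -0.29 at 42 h and -0.71 at 18 h. A smaller decline in experiment 2 and a higher level at all its times cannot be told apart by these values.

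Levels are given as quantile normalized log2 intensities, changes are 42 h minus 18 h, and errors are SE of the paired change from limma unless SD is named. The array medians of the deposited intensities lay between 179.05 and 195.7 at 42 h and between 168 and 190.65 at 18 h. The number of arrays limits the precision. All 20 fibroblast markers passed the filter on dim probe sets, and their summed intensity ran from 187476 to 237902 at 42 h and from 203355 to 217618 at 18 h. Of markers of other cells, 6 of 15 for muscle, 5 of 11 for neurons and glia, 3 of 8 for adipocytes, 4 of 16 for macrophages and lymphocytes and 3 of 16 for epithelium and endothelium passed it. The muscle markers summed to 1371 to 1698 at 42 h and 1487 to 1774 at 18 h. Sums for neurons and glia were 2748 to 3057 at 42 h and 2470 to 3706 at 18 h, and those for adipocytes 1752 to 2588 at 42 h and 1541 to 1910 at 18 h. Sums for macrophages and lymphocytes were 1683 to 2190 at 42 h and 1979 to 2141 at 18 h, and those for epithelium and endothelium 928 to 1188 at 42 h and 962 to 1477 at 18 h. The groups overlapped in each of these sums, and Lpl and Cd68, described below, belong to the adipocyte and macrophage lists. The 3′ to 5′ ratio of the GAPDH control probe sets, a sign of RNA integrity, ran from 0.705 to 0.750 at 42 h and from 0.758 to 0.785 at 18 h, so the groups did not overlap in it. That of actin ran from 1.22 to 1.61 at 42 h and from 1.20 to 1.51 at 18 h. The part of RNA integrity in the differences below was not tested. In bulk RNA, fewer cells that express a gene and less of its RNA per cell cannot be told apart.

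Dpt rose at 42 h and Cryz fell, and no other probe set passed the test. That is 2 of the 7453 probe sets tested, or 0.0268%, at an adjusted p below 0.05 in limma with the experiment as a block. Without the pairing by experiment only Cryz passed. The count also moved with the arrays used: it was 17 without experiment 1, 0 without experiment 2 and 1 without experiment 3. Dpt did not pass in any of these fits, and the 1 call without experiment 3 was neither Dpt nor Cryz. Leaving out one array gave 1 call without the 18 h array of experiment 1 or of experiment 2, 5 without that of experiment 3, and 4 without the 42 h array of experiment 3. At an unadjusted p below 0.05, 415 probe sets, or 5.57%, were higher at 42 h and 424, or 5.69%, were lower. These 839 compare with 372.7 that chance gives over independent probe sets, and with 304 in the fit without the block.

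Dpt encodes dermatopontin, a small protein of the extracellular matrix that binds decorin and collagen fibrils. Its deposited intensities were 3022, 641 and 1093 at 42 h in experiments 1, 2 and 3, against 713, 181 and 373 at 18 h. The gene lay higher at 42 h in each experiment, but the groups overlapped, since the 42 h array of experiment 2 lay below the 18 h array of experiment 1. The log2 level averaged 10.35 ± 1.15 at 42 h and 8.56 ± 0.95 at 18 h (SD, n = 3 each). The paired change was 1.78 ± 0.30, or 3.44-fold (limma, adjusted p = 0.0167), and it was 2.13, 1.77 and 1.44 in the 3 experiments. Without the block the adjusted p was 1, and without the 18 h array of experiment 1 the change was 1.88 with an adjusted p of 0.052. Over the whole course the mean level was lowest at 0 h, with 6.73, and highest at 48 h, with 10.45. The means of the times between were 7.82 (12 h), 8.55 (24 h), 8.68 (30 h) and 9.56 (36 h).

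Cryz encodes zeta-crystallin, a quinone reductase that uses NADPH and also binds RNA. Its deposited intensities were 2253, 2311 and 2512 at 42 h, against 3353, 3874 and 4539 at 18 h. Every 42 h array lay below every 18 h array. The log2 level averaged 11.22 ± 0.07 at 42 h and 11.93 ± 0.18 at 18 h (SD, n = 3 each), and the paired change was -0.71 ± 0.09 (limma, adjusted p = 0.000638). The change was -0.59, -0.72 and -0.82 in the 3 experiments. It passed without the block (limma, adjusted p = 0.0323) and without the 18 h array of experiment 1, where it was -0.77 (limma, adjusted p = 0.00127). It did not pass with only the arrays of 42 h and 18 h, without experiment 2 or without experiment 3, where the adjusted p in limma was 0.194, 0.291 and 0.238. Under the other 19 of 22 alternatives it passed, while Dpt passed under 11 of 22. The course of Cryz differed from that of Dpt: its mean was 10.58 at 0 h and reached 11.86 at 6 h and 12.03 at 24 h, then stood at 11.62 at 36 h and 11.29 at 48 h. The level at 42 h lay below that at 18 h but above that at 0 h.

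**Figure D1:**
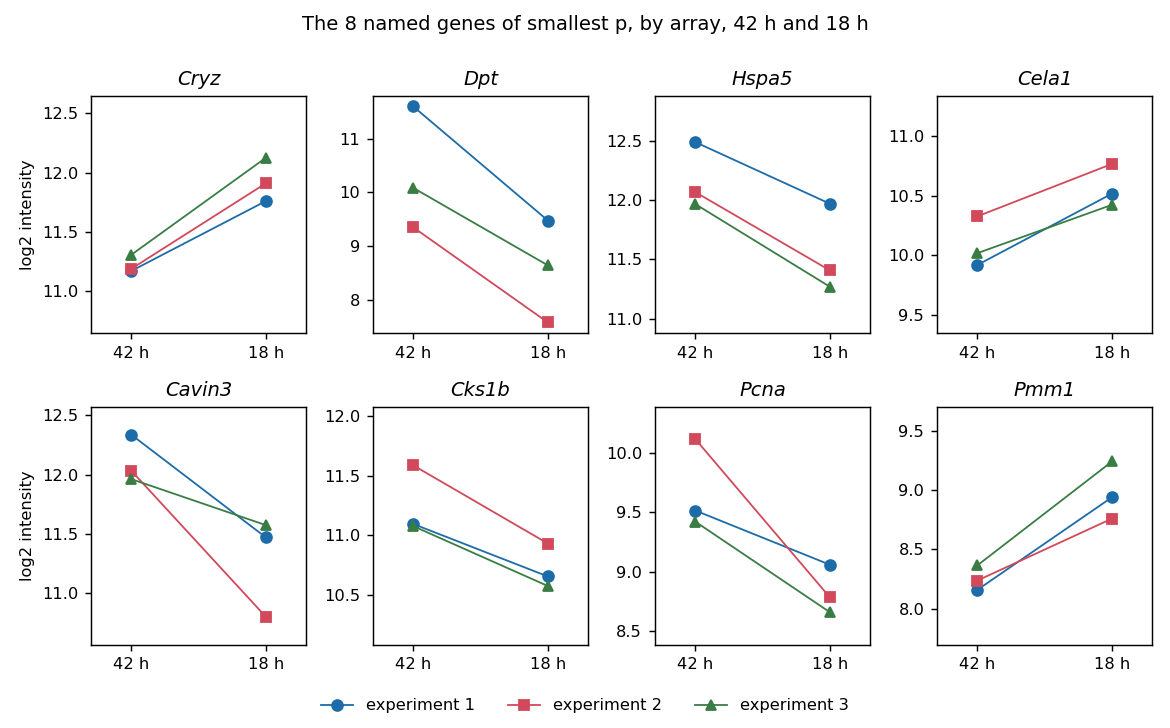
Log2 intensity on the 42 h (left) and the 18 h array (right) of each experiment for the 8 named genes of smallest p, each line being 1 experiment and the vertical scales differing between panels. Dpt rose in all 3 experiments although its groups overlap, Cryz fell with no overlap, and the other 6 genes had an adjusted p of 0.053.

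The genes next in order of p did not pass, each with an adjusted p of 0.053 in limma. Hspa5, which encodes BiP, the main HSP70 chaperone of the endoplasmic reticulum (ER), had intensities of 5479, 4243 and 3965 at 42 h, against 3839, 2662 and 2508 at 18 h. Each 42 h array lay above the 18 h array of its experiment, and the change was 0.62 ± 0.12. Cela1, an elastase, had a change of -0.48 ± 0.10 and Pmm1, a phosphomannomutase, one of -0.73 ± 0.15. Cavin3, a coat protein of caveolae, had one of 0.83 ± 0.16. Cks1b, a small subunit of cyclin-dependent kinases, stood at 11.10, 11.59 and 11.08 at 42 h, against 10.65, 10.93 and 10.57 at 18 h. Pcna, the sliding clamp of DNA polymerase, stood at 9.52, 10.12 and 9.42 at 42 h, against 9.06, 8.78 and 8.66 at 18 h. The groups did not overlap for Cks1b or Pcna, and the changes were 0.53 ± 0.11 and 0.85 ± 0.17. Under a stricter filter on dim probe sets, which cuts the number of tests, Hspa5, Cela1, Cavin3, Cks1b, Pcna, Pmm1 and Ifi202b passed with an adjusted p of 0.034.

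Ifi202b, an interferon-inducible gene of the p200 family, came next with a change of 1.13 ± 0.23 (limma, adjusted p = 0.0571). It stood at 10.45, 8.99 and 9.35 at 42 h, against 8.79, 8.30 and 8.32 at 18 h. The groups did not overlap, and the 42 h array of experiment 1 was the highest. The rest of the 20 genes of smallest p had adjusted p-values between 0.112 and 0.173. Among them Tmem176b (-0.43), Atp6v0a1, a subunit of the proton pump of acid organelles (-0.53), Gas7, a growth arrest-specific gene (-0.72), and Tkt, the transketolase of the pentose phosphate pathway (-0.70), were lower. Nampt, which makes a precursor of NAD (0.78), Siah2, a ubiquitin ligase (0.71), Cd164, a sialomucin (0.73), and Gmppb, which makes GDP-mannose (1.31), were higher. Gmppb was dim, with deposited intensities of 268, 164 and 109 at 42 h, against 122, 40 and 46 at 18 h. Probe sets whose names end in _s_at or _f_at may match RNA of related genes, which holds for those of Cavin3 and, among genes below, Rora, Cry1, Csnk1d, Actb, Cd68, Atf3, Nop58 and Mcm3.

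Promoters are shown for the called genes and for Hspa5, the ER chaperone that came next, because several of its list lay higher with it. They run from 250 bases before to 50 bases after the start of the gene, as RefSeq annotates it on build GRCm38.p6. Both strands were searched for the E-box CACGTG, through which CLOCK and BMAL1 act, the cyclic AMP response element TGACGTCA, the AP-1 site TGANTCA and the heat shock element GAANNTTC. An ER stress element, CCAAT and CCACG with 9 bases between them, was added after the values had been seen. Capitals mark a match, and no letters of the Dpt promoter matched. The Cryz promoter shown, 1 of 2 that RefSeq gives, holds an E-box 212 bases before the start, and the other holds no match. In Hspa5 an AP-1 site starts 182 bases and an ER stress element 65 bases before the start.
Dpt, chr1:164796413-164796712, forward strand: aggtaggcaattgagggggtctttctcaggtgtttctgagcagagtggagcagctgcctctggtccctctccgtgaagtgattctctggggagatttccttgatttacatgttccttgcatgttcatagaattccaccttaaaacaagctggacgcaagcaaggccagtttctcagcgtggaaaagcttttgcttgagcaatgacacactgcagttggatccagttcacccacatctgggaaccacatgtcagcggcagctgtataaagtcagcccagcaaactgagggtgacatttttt
Cryz, chr3:154596461-154596760, forward strand: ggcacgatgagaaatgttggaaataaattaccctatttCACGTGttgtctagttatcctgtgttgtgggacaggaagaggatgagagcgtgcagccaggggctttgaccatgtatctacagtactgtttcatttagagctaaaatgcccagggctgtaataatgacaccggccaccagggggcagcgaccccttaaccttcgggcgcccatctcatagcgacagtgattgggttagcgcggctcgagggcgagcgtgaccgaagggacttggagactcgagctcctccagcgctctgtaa
Hspa5, chr2:34771840-34772139, forward strand: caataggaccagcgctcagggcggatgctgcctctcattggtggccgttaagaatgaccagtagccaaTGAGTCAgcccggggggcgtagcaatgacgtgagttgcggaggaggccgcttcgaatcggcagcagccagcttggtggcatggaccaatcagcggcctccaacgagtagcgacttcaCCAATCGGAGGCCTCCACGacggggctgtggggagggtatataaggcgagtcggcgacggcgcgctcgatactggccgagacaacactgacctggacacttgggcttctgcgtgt

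A match is a description of letters and not a site in use. An E-box was found in 8.09% of 27025 genes, the AP-1 letters in 8.97%, the heat shock element in 9.04% and the cyclic AMP response element in 2.03%. Of the 55 genes that the naming rule gave, 39 had a promoter in the table. Of these 39, 6 held an E-box (Cd164, Cry1, Cryz, Klf4, Ndufa7 and Per1), 3 the AP-1 letters, 2 the heat shock element and 0 the cyclic AMP response element. The ER stress element was found in 37 of the 27025 genes, or 0.137%. It was found in 6 of the 23 ER genes with a promoter, out of 26 measured, and the list was made of genes known for this response. The matches are shown with the fixed ends in capitals, turned so that each reads CCAAT first. Hsp90b1 holds a pair of them.
Canx, chr11:50325800-50325818: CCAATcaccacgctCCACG
Creld2, chr15:88819520-88819538: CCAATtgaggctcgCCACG
Dnajc3, chr14:118937827-118937845: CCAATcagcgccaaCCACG
Hsp90b1, chr10:86705638-86705656: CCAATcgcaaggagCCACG
Hsp90b1, chr10:86705533-86705551: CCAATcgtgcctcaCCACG
Hspa5, chr2:34772025-34772043: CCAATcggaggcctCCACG
Pdia6, chr12:17266491-17266509: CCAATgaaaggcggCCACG

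The 6 genes that hold this element had positive changes, as did 19 of the 26 measured ER genes, whose median was 0.20. Hspa5 stood apart from the others in size of change. Hspa5 had 0.62, Pdia6, a protein disulfide isomerase, 0.30, and Creld2 0.28. Dnajc3, an inhibitor of the kinase PERK, had 0.21, Hsp90b1, the HSP90 of the ER, 0.19 and Canx, the lectin chaperone calnexin, 0.18. The unadjusted p was 2.54e-05 for Hspa5 and 0.0455 for Pdia6, and it was above 0.05 for the other 4 genes.

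**Figure D2:**
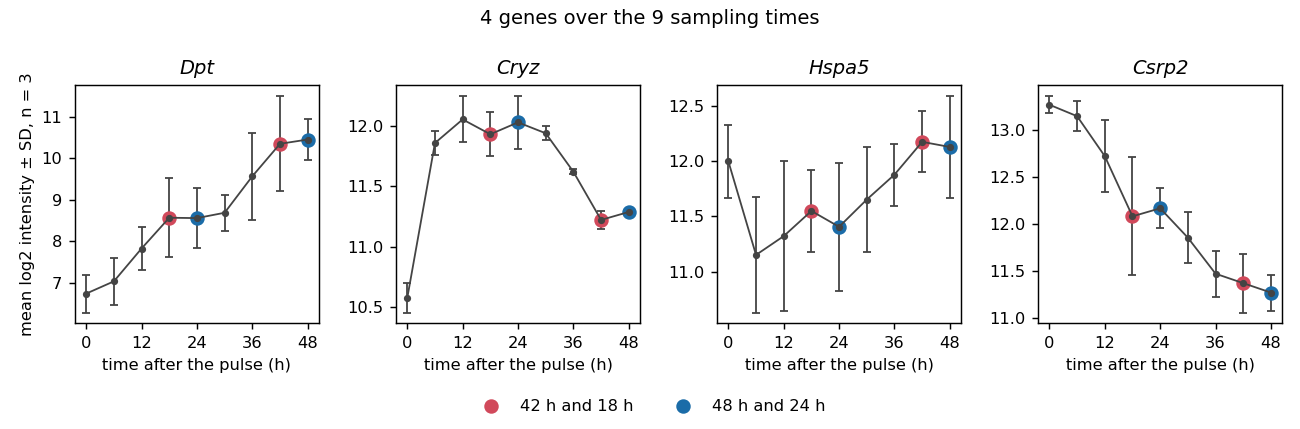
Mean log2 intensity ± SD (n = 3 arrays) of 4 genes against time after the pulse in h, with 18 h and 42 h in red and 24 h and 48 h in blue. Dpt has its highest mean at 48 h, Cryz lies lower at 42 h and 48 h than at 18 h and 24 h, Hspa5 has its lowest mean at 6 h, and Csrp2 has its highest mean at 0 h.

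The same day apart was sampled once more at 48 h against 24 h, on arrays of the same experiments but with no array in common. There 43 of 7453 probe sets passed, or 0.577%, of which 14 were higher and 29 lower, and Dpt and Cryz were both among them. The count was 2 without the block, 2 with only the arrays of those times, and 0 without experiment 2 or without experiment 3. These 2 are all of the calls at 42 h against 18 h and 4.65% of those at 48 h against 24 h. The 43 calls were chosen on the later pair, so their values at 42 h against 18 h come from other arrays. Both pairs use the same SE for each probe set, however, so a choice by p favours probe sets of small SE in both. The share with an unadjusted p below 0.05 is therefore not an independent check. All 14 that were higher at 48 h had a positive change at 42 h, and 28 of the 29 lower ones a negative change. With the sign of the later pair, 38 had an unadjusted p below 0.05 at 42 h against 18 h, or 88.4%, where 5.57% of all probe sets were higher and 5.69% lower at that p. In 39 of the 43 the sign held in each experiment. Without the block 20 of the 43 had such a p, and without experiment 2 it was 24 of 43.

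The 14 higher probe sets had a median change of 0.56 at 42 h and 0.81 at 48 h, and the 29 lower ones medians of -0.40 and -0.64. A larger change in the pair used to choose them is built into that choice. Changes given at 42 h are relative to 18 h, and those at 48 h are relative to 24 h. Among the higher genes, Agtr2, the angiotensin II receptor type 2, had a change of 0.67 at 42 h and 1.00 at 48 h. Lpl, lipoprotein lipase, had 0.48 and 0.94, Hmox1, heme oxygenase, 0.60 and 1.05, and Nfib, a transcription factor, 0.57 and 0.83. The experiments did not share a sign for Hmox1 at 42 h, with 1.14, -0.065 and 0.73 in experiments 1, 2 and 3. Sdc2, a heparan sulfate proteoglycan of the cell surface, had 0.37 and 0.59, and Calu, a calcium-binding protein of the ER, 0.30 and 0.48. Each of these 6 had an unadjusted p below 0.05 at 42 h against 18 h, and none passed adjustment there.

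The lower genes included 3 of the list of actin cytoskeleton and SRF targets, namely Csrp2, Tagln and Actb. Csrp2, a LIM protein of smooth muscle, stood at 11.37, 11.68 and 11.06 at 42 h, against 11.64, 12.80 and 11.80 at 18 h, a change of -0.71 ± 0.18. Tagln, which encodes SM22, stood at 8.19, 8.99 and 8.83 at 42 h, against 8.55, 9.61 and 9.62 at 18 h, a change of -0.59 ± 0.17. Each 42 h array lay below its 18 h partner for both genes, though the groups overlapped. Tgfb1i1, the focal adhesion protein Hic-5, had -0.44 at 42 h and -0.57 at 48 h. Tnc, tenascin C, had -0.44 and -0.90, Thbs3, a thrombospondin, -0.43 and -0.73, and Ptgis, prostacyclin synthase, -0.46 and -0.64. At 42 h Thbs3 was positive in experiment 3, with 0.15. Serpina3n, a serine protease inhibitor, had -0.62 and -1.05. Tmem176a and its neighbour Tmem176b, membrane proteins, had -0.71 and -0.43 at 42 h and -1.31 and -0.42 at 48 h. Tapbp, which loads MHC class I molecules with peptide, had -0.46 and -0.52, and Npc2, a cholesterol carrier of the lysosome, -0.27 and -0.53.

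Some of the 43 did not have both the same sign and an unadjusted p below 0.05 at 42 h against 18 h. Trim41, a ubiquitin ligase, had 0.02 ± 0.13 at 42 h and -0.65 at 48 h, with levels of 8.73, 8.85 and 8.77 at 42 h against 8.72, 8.82 and 8.74 at 18 h. Actb, cytoplasmic actin, had -0.17 ± 0.19 and -0.83, and Csnk1d, a kinase of the clock proteins, -0.08 and -0.35. Akr7a5 and Agfg1 had the sign of the later pair with an unadjusted p of 0.106 and 0.054 in limma. For Agfg1 the change was 0.30, 0.33 and 0.30 in experiments 1, 2 and 3, and the groups did not overlap. The test of the difference between the changes, 42 h minus 18 h less 48 h minus 24 h, called 0 of 7453 probe sets in limma. At an unadjusted p below 0.05 it held 213, fewer than the 372.7 that chance gives, and 70 without the block. The smallest such p among the 43 was 0.00104, for Trim41.

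**Figure D3:**
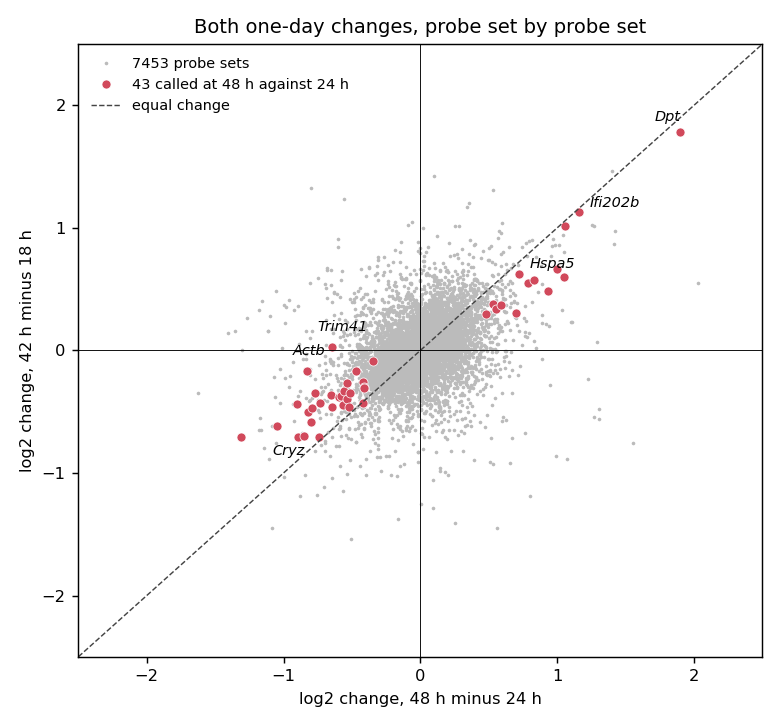
Change at 42 h minus 18 h (vertical) against change at 48 h minus 24 h (horizontal), both in log2 units, with 1 point for each of 7453 probe sets and the 43 called at 48 h against 24 h in red. Of the red points, 42 share the sign of both changes, Trim41 lies at 0.02 and -0.65, and the dashed line marks equal change.

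Over all 7453 probe sets, 65.0% had the same sign in both pairs, and of the 839 with an unadjusted p below 0.05 at 42 h against 18 h it was 712, or 84.9%. The changes of the pairs correlated across probe sets with r = 0.380. The pairs share experiments and one estimate of the spread, and probe sets are not independent replicates. Between experiments the change at 42 h against 18 h correlated less, with r = 0.128 for experiments 1 and 2, 0.017 for 1 and 3 and 0.130 for 2 and 3, and 31.8% of probe sets had 1 sign in all 3. The other times 1 day apart gave more calls, with 218 higher and 314 lower for 30 h against 6 h and 90 higher and 138 lower for 36 h against 12 h. Without the block they gave 55 and 14 calls. Their earlier times, 6 h and 12 h, precede the low of the mitotic genes. Of the 43 probe sets, 35 had the same sign at 30 h against 6 h and 41 at 36 h against 12 h.

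Gene lists are described by how many of their measured genes had a positive change, by their median and by the genes with an unadjusted p below 0.05. Over all 5643 genes the median change was -0.00 and 2765 were positive. Such a p was found for 317 genes, or 5.62%, with a higher level at 42 h and for 355, or 6.29%, with a lower one. Apart from Dpt and Cryz, none of the list members named below passed adjustment in limma, and members other than that of smallest p were chosen by their unadjusted p after the values had been seen.

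Of the ER chaperones and genes of the unfolded protein response, 19 of 26 had a positive change, the median was 0.20, and 9, or 34.6%, were higher at 42 h with an unadjusted p below 0.05, against 0 lower. These genes fold and modify secreted proteins, of which fibroblasts make many. Beside Hspa5 they were Pdia3, Pdia6 and Ero1a, which form disulfide bonds, Ppib, a prolyl isomerase, Dnajb9 and Dnajb11, which assist BiP, Manf, a secreted factor of the response, and Xbp1, a transcription factor of it. Pdia3 stood at 11.68, 10.68 and 11.05 at 42 h, against 11.33, 9.91 and 10.07 at 18 h (0.70 ± 0.18). Xbp1 stood at 10.83, 10.74 and 10.65 at 42 h, against 10.65, 10.18 and 10.19 at 18 h (0.40 ± 0.11). The 42 h array lay above its partner in each experiment for both genes, with the smallest change of each in experiment 1. The median of the list was 0.15, 0.23 and 0.24 in the 3 experiments, and 0.24 without the 18 h array of experiment 1. Relative to 0 h the median level of the list lay at -0.23 by 6 h, at -0.11 by 18 h, and at 0.05 by 42 h.

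The list of heat shock genes and cytosolic chaperones had 22 of 33 genes positive and a median of 0.15. In it 7 were higher with an unadjusted p below 0.05, against 0 lower. One of these was Hmox1, heme oxygenase, which had the largest change of the list (0.60), though it had -0.065 in experiment 2. Ppid, a prolyl isomerase that works with HSP90, had the smallest p of the list. It stood at 10.20, 9.63 and 9.48 at 42 h, against 9.58, 8.89 and 9.26 at 18 h (0.53 ± 0.12). Stip1, which links HSP70 and HSP90, had 0.52 ± 0.18, and Hsp90aa1 had 0.55 ± 0.23, with changes of 0.92, 0.87 and -0.15 in the 3 experiments. The median of the list was -0.05 in experiment 3. The heat shock element was found in 11 of the 25 genes of this list with a promoter, or 44.0%, against 9.04% of all genes. The list was named for the heat shock response, so a high share can come from how it was made.

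Of the genes of glycolysis and hypoxia 22 of 28 were positive, with a median of 0.14, and 9 were higher with an unadjusted p below 0.05, against 0 lower. Pgam1, phosphoglycerate mutase, stood at 11.57, 12.00 and 11.31 at 42 h, against 11.00, 11.07 and 11.12 at 18 h, with no overlap (0.57 ± 0.15). Hk2, hexokinase 2, stood at 10.25, 8.73 and 8.25 at 42 h, against 8.30, 7.96 and 7.57 at 18 h (1.13 ± 0.38), and its change was largest in experiment 1. Ldha, Pgk1, the glucose transporter Slc2a1 and Hif1a had changes of 0.41, 0.55, 0.41 and 0.23. Of the ribosome biogenesis genes and MYC targets 30 of 43 were positive, with a median of 0.13, 12 higher and 2 lower at that p. Nop58 and Nop56, core proteins of the particles that methylate ribosomal RNA, had 0.53 ± 0.17 and 0.48 ± 0.19. The lower 2 were Ddx10, a helicase (-0.69), and Polr1a, the large subunit of RNA polymerase I (-0.32). The list median was 0.13, 0.20 and -0.04 in the 3 experiments.

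The immediate early genes, transcription factors and phosphatases that growth signals switch on within minutes, had 18 of 23 positive and the highest median among lists of 10 or more genes, 0.34. At an unadjusted p below 0.05, 9 were higher and 0 lower, and 3 of these did not overlap between the groups, as 3.03% of all probe sets did in that direction. Fos stood at 10.54, 7.62 and 7.72 at 42 h, against 7.14, 7.28 and 7.06 at 18 h (1.46 ± 0.48). The groups did not overlap, but the change was 3.40 in experiment 1, against 0.34 and 0.66 in the others. Klf4, a zinc finger factor, stood at 12.04, 11.04 and 11.86 at 42 h, against 11.64, 9.97 and 10.77 at 18 h (0.85 ± 0.23). Here experiment 1 had the smallest change. Ier2, Atf3, Ier3, Dusp1 and Dusp6 had changes of 0.91, 1.03, 1.02, 0.80 and 0.86. Myc stood at 8.92, 7.37 and 7.76 at 42 h, against 7.05, 7.16 and 6.89 at 18 h (0.98 ± 0.30), with no overlap. The list median was 0.99 in experiment 1, 0.22 in experiment 2 and 0.30 in experiment 3. It was 0.41 without the 18 h array of experiment 1. With a single array of 42 h or 18 h left out, the fitted list median ran from 0.17 to 0.51.

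Genes of S phase were positive in 31 of 35 cases, with a median of 0.20, and those of G2 and mitosis in 23 of 32, with a median of 0.09. At an unadjusted p below 0.05, Pcna, Mcm3, Cdc6 and Rrm2, which act in replication, and Cks1b in the mitotic list were higher, and none was lower. That is 11.4% of the S phase list and 3.1% of the mitotic list, where 5.62% of all genes were higher at that p. The size differed between experiments: the median change of S phase genes was 0.07, 0.36 and 0.12 in experiments 1, 2 and 3. Levels of the mitotic genes were taken relative to the 0 h mean of all 3 experiments. They were -1.70, -0.29 and -1.58 at 42 h, against -1.59, -0.71 and -1.72 at 18 h. The 42 h array of experiment 2 thus held the highest level of mitotic RNAs of the 6 arrays. Mcm3, a subunit of the replicative helicase, stood at 7.96, 10.13 and 8.62 at 42 h, against 7.64, 9.01 and 8.14 at 18 h (0.64 ± 0.23).

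Genes of the actin cytoskeleton and targets of SRF were negative in 19 of 28 cases, with a median of -0.10, and 6, or 21.4%, were lower with an unadjusted p below 0.05, against 0 higher. They were Csrp2, Tagln, Csrp1, Acta2, Tpm1 and Myl9. Acta2, smooth muscle actin, stood at 8.53, 9.73 and 9.42 at 42 h, against 9.06, 10.47 and 10.80 at 18 h (-0.88 ± 0.33). Its groups overlapped, and it lay lower at 42 h in each experiment. The list median was 0.03 in experiment 3 and negative in the other experiments. Fatty acid oxidation had 19 of 25 genes negative and a median of -0.13. Eci1, Acadm and Cpt1a, 3 enzymes or carriers of that pathway, were lower with an unadjusted p below 0.05, and 0 were higher. Acadm, a medium-chain dehydrogenase, stood at 11.03, 11.43 and 11.45 at 42 h, against 11.48, 11.72 and 12.26 at 18 h, with no overlap (-0.52 ± 0.18). Of this list 4 genes lay lower with no overlap, where 3.97% of all probe sets did.

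Lysosomal genes went both ways, with 25 of 40 negative, a median of -0.05, 6 lower and 3 higher at an unadjusted p below 0.05. Cd68, Grn, Npc2, Gabarap, Ctsa and Gaa were lower. Cd68, a glycoprotein of endosomes that also marks macrophages, stood at 7.77, 7.67 and 7.72 at 42 h, against 8.23, 8.42 and 8.02 at 18 h (-0.50 ± 0.16). Lamp2, a membrane protein of lysosomes, was higher by 0.57 ± 0.15, but its other probe set had -0.28 ± 0.17, so the sign for this gene depends on the probe set. Of 38 genes of collagens and fibrillar matrix 23 were positive, with a median of 0.03 and 4 genes on each side at that p. Apart from Dpt, Mfap5, a microfibril protein, was higher by 0.53, while Col15a1 and Ogn, osteoglycin, were lower with -0.78 and -0.71. Of 36 growth factors, cytokines and receptors 18 were positive, with a median of 0.01, 7 higher and 4 lower at that p. Among them Ccl2 and Ccl7, chemokines for monocytes, and Csf1, a growth factor for macrophages, had changes of 0.94, 0.90 and 0.43, and Hgf, hepatocyte growth factor, had -0.62. Of genes of the NRF2 pathway and glutathione, which hold Cryz, 20 of 41 were positive, with a median of -0.01.

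**Figure D4:**
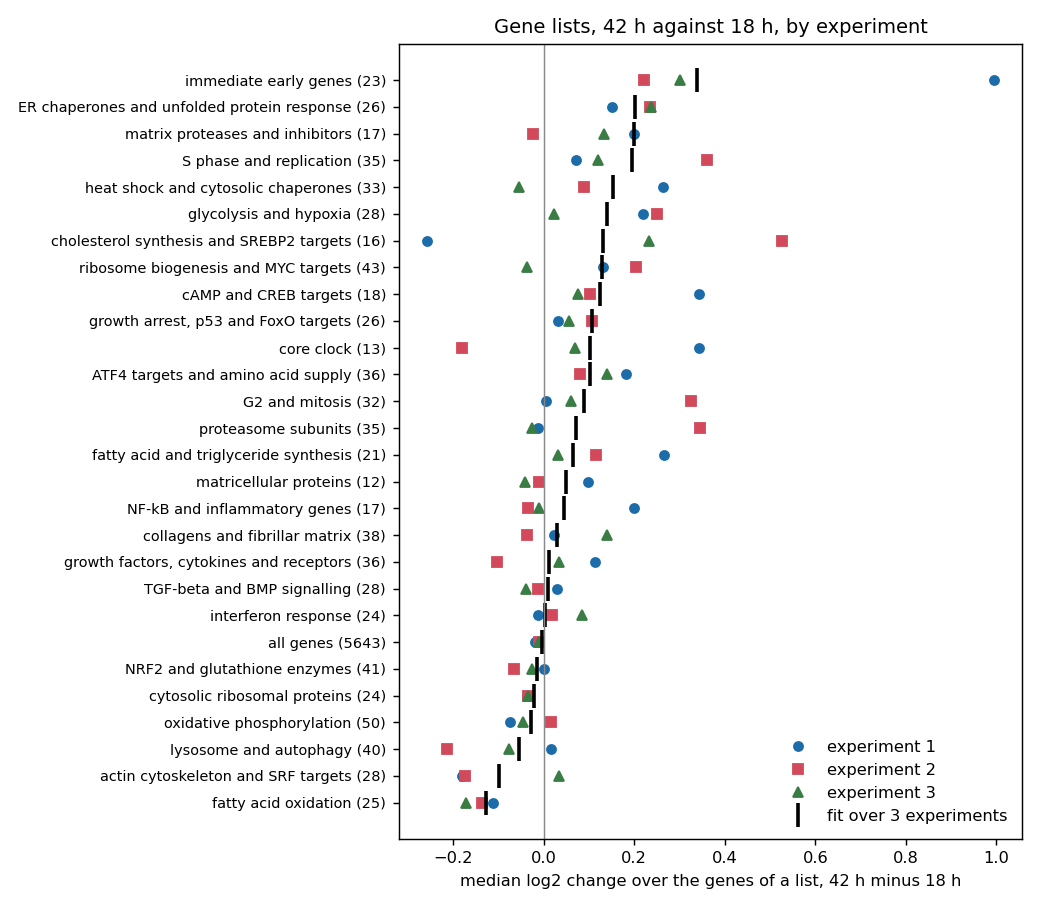
Median log2 change, 42 h minus 18 h, over the genes of each list with 10 or more measured genes (number in brackets), for each experiment and for the fit over all 3. The immediate early list is positive throughout, with 0.99 in experiment 1, 0.22 in experiment 2 and 0.30 in experiment 3, and the ER chaperones lie between 0.15 and 0.24.

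None of the 13 measured core clock genes passed the test. Rora, a nuclear receptor that activates Bmal1, stood at 9.96, 9.22 and 9.21 at 42 h, against 9.17, 8.88 and 8.80 at 18 h (0.51 ± 0.13; limma, adjusted p = 0.173). Clock stood at 8.20, 8.18 and 8.19 at 42 h, against 7.86, 7.51 and 7.56 at 18 h (0.55 ± 0.19; limma, adjusted p = 0.246). The groups did not overlap for these 2, where 3.03% of all probe sets lay higher at 42 h with no overlap. At 48 h against 24 h the changes were smaller, 0.19 for Rora and 0.18 for Clock. The other 11 had an unadjusted p above 0.05 at 42 h against 18 h. Arntl, the gene of BMAL1, stood at 8.68, 8.70 and 8.83 at 42 h, against 9.37, 8.09 and 8.76 at 18 h. Its change was -0.00, with a 95% interval of -0.60 to 0.60, so changes within that range in either direction are not excluded. The 3 experiments gave -0.69, 0.62 and 0.07.

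Nr1d2, the gene of REV-ERB beta, stood at 9.07, 8.37 and 8.71 at 42 h, against 6.24, 8.85 and 8.01 at 18 h. Its change of 1.02 ± 0.57 rested on the 18 h array of experiment 1, since without that array it was 0.12. Nr1d1, the gene of REV-ERB alpha, had -0.09 ± 0.29 with all arrays and -0.46 without that one. Per3 had 0.11 ± 0.37 and -0.34 without it. Bhlhe40, a repressor that binds E-boxes, had 0.22 ± 0.46 and -0.12 without it. For Per3, Bhlhe40, Arntl, Cry1 and Cry2 leaving out that array turned the sign. Cry1, Cry2, Per1 and Csnk1e had changes of -0.13, -0.07, 0.10 and 0.13 with all arrays, and Timeless, named for a fly clock gene, had 0.10. The intervals of Cry1 and Per1 ran from -0.59 to 0.33 and from -0.51 to 0.70.

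**Figure D5:**
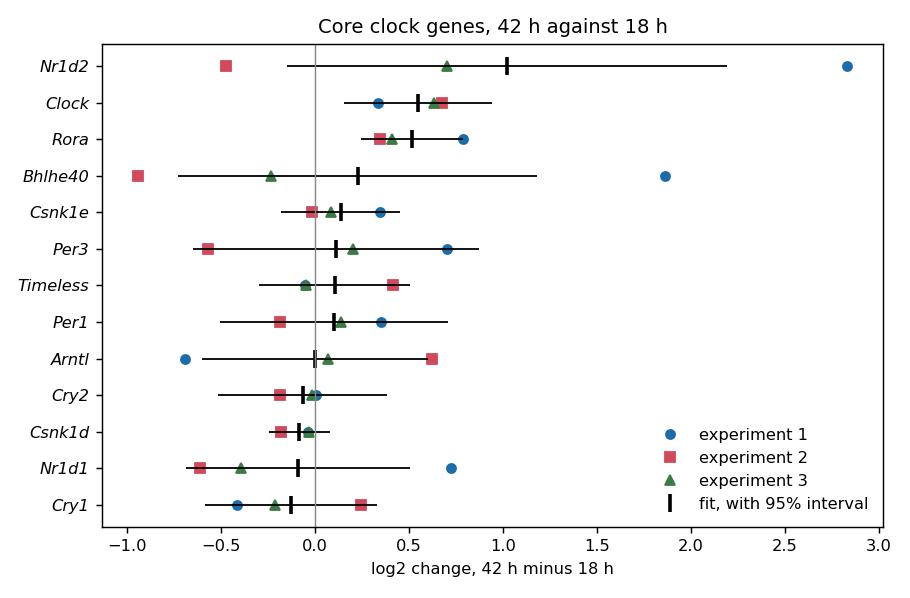
Change in log2 units, 42 h minus 18 h, of the 13 measured core clock genes in each experiment, with the fitted change and its 95% interval. Clock and Rora have intervals above 0, and Nr1d2 and Bhlhe40 differ most between experiments, with the highest value of each in experiment 1.

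Against the mean profile of each time in the other experiments, the 18 h array of experiment 1 correlated with r = 0.097 at its own time, while those of experiments 2 and 3 had 0.085 and 0.104. Each of the 3 matched another time better: the array of experiment 1 matched 30 h (r = 0.160), that of experiment 2 matched 12 h (0.197) and that of experiment 3 matched 24 h (0.175). Without it Cryz passed and Dpt did not, and 746 probe sets had an unadjusted p below 0.05. The medians of the ER chaperones, S phase genes and immediate early genes were then 0.24, 0.28 and 0.41. With any single array of the compared times left out, these medians ran from 0.18 to 0.26, 0.14 to 0.28 and 0.17 to 0.51.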

How the data were processed

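Total RNA of NIH/3T3 cells was labelled with biotin and hybridized to Affymetrix U74v2 mouse arrays, per the labels' protocols, with a single array for each sample. What the authors deposited is a linear intensity for each probe set, and how it was computed from the scans is not given in the sources used. After leaving out 2% of the values at each end, the mean of every array lay between 500.277 and 500.347, so the arrays had been scaled before deposit. Of 12488 probe sets, 66 were Affymetrix controls. Detection calls were not used here.

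A pseudocount of 12.1, the 10th percentile of all intensities, was added before log2 was taken, so fold changes of dim probe sets are understated. On that scale the medians of the arrays differed by up to 0.25, and the values were quantile normalized. Controls were left out, as were probe sets with a mean level under the 40th percentile, which kept 7453. Genes were named from the platform annotation where it gives 1 symbol (10833 probe sets, of which 10817 matched the RefSeq table), and the brightest probe set stood for a gene, which gave 5643 genes.

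One fit of the 9 time means over all 27 arrays, with the experiment as a block, was made in limma 3.58.1 (R 4.3.3). The variance prior followed the intensity (eBayes with trend), and p-values were adjusted after Benjamini and Hochberg over all 7453 probe sets. The pairing was checked: deviations from the time means correlated between arrays of one experiment in every pair, with r from 0.426 to 0.642, 0.349 to 0.599 and 0.135 to 0.482 in experiments 1, 2 and 3. The code was tested on simulated data. Genes were named as the calls, the genes of smallest p up to 20, the member of smallest p of each list and every core clock gene measured. The comparison, the gene lists and the naming rule were chosen with earlier results of these data known. No 2 arrays held identical values. Alternatives changed the block, scaling, pseudocount, filter, variance model, array weights and the arrays used.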

Additional observations from a re-analysis of the deposited data

How the results depend on the processing

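With 3 arrays a time, the median SE of a change was 0.17 on the log2 scale, so small changes were not detectable. The 42 h against 18 h count of 2 became 1 with no replicate block, in eBayes without the intensity trend, with only the arrays of the contrasted times, with only arrays from 18 h on, and without the 18 h and 30 h arrays of experiment 1, which earlier results of these data had set apart. It became 11 with the filter at the 60th percentile, where fewer probe sets were tested, and 0 to 17 when a replicate or an array was left out. The 48 h against 24 h count of 43 became 2 with no replicate block and with only the contrasted arrays, 12 without the intensity trend, 186 with array weights, and 0 to 54 with a replicate or array left out. Of those 43 probe sets, the 38 with the same sign and an unadjusted p below 0.05 at 42 h against 18 h became 20 with no replicate block and 24 to 37 with a replicate or array left out. The count of probe sets whose change differed between the pairs of times was 0 to 1 with a replicate or array left out. Of the 55 named genes, 46 kept 1 sign under each of the 22 alternatives in which they were measured, some being too dim for the stricter filter, and the other 9 were core clock genes. Arntl turned to 0.014 with the scaling as deposited and to 0.0020 with a pseudocount of 1. Without the 18 h and 30 h arrays of experiment 1, Arntl, Cry1 and Cry2 had 0.25, 0.016 and 0.020, and Per3 and Bhlhe40 had -0.27 and -0.087. With replicates or arrays left out, Arntl ran from -0.31 to 0.34, Bhlhe40 from -0.59 to 0.81, Cry1 from -0.36 to 0.045, Cry2 from -0.18 to 0.094, Csnk1e from -0.020 to 0.24, Nr1d1 from -0.50 to 0.16, Per1 from -0.027 to 0.24, Per3 from -0.34 to 0.48 and Timeless from -0.053 to 0.19. The cause of these shifts was not tested.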

Other observations

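Of the sterol genes, the enzymes of cholesterol synthesis and targets of SREBP2, 14 of 16 had a positive change at 42 h against 18 h, with a median of 0.13, yet 0 had an unadjusted p below 0.05. Their median was -0.26 in experiment 1, 0.53 in experiment 2 and 0.23 in experiment 3, so the experiments did not share a sign. Of the targets of ATF4, a factor of amino acid shortage, 28 of 36 were positive with a median of 0.10. Mthfd2, Slc1a5 and Gars, or 8.33% of the list, were higher with an unadjusted p below 0.05, as were 5.62% of all genes. Proteasome subunits were positive in 25 of 35 cases with a median of 0.07, and their median was 0.35 in experiment 2, against -0.01 in experiment 1 and -0.03 in experiment 3. Cytosolic ribosomal proteins, with 8 of 24 positive and a median of -0.02, and genes of oxidative phosphorylation, with 22 of 50 positive and a median of -0.03, lay near the median of all genes.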
